A study of Mus musculus with 12 samples.

Results

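The nuclear genes of mitochondrial complex I were followed in 12 clones of mouse granulocyte-monocyte progenitors, 6 wild-type and 6 lacking Tafazzin. Members were all protein-coding genes in the count files whose symbol is Nduf followed by a, ab, af, b, c, s or v and a number. The rule found 45 of 37583 gene identifiers, and all 45 had enough counts to be tested among 11819 tested genes. The rule uses names alone and takes every match, and it was chosen with earlier results of these data known. The genes of complex I that are encoded in mitochondrial DNA were not analysed here.

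The cells were conditionally immortalized progenitors from the fetal liver of C57BL/6 embryos at embryonic day 15.5. A retroviral fusion of the estrogen receptor with the transcription factor Hoxb8 (ER-Hoxb8) keeps such cells dividing, and it was present in every clone of both genotypes. All clones grew in 0.5 µM estradiol and stem cell factor at about 50 ng/ml, and each is a line grown from a single cell. Wild-type clones carry the names 1A, 1B, 1C, 2D, 2E, 2F. Knockout clones carry the names 3G, 3H, 3I, 4J, 4K, 4L. Each number (here called the title number) is shared by 3 clones, and the labels leave its meaning unstated. Should it stand for a common embryo or starting culture, the 12 clones would hold fewer independent units than the tests assume, and their p-values would be smaller than they should be.

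Complex I (NADH:ubiquinone oxidoreductase) is the largest enzyme of the respiratory chain. It takes electrons from NADH at a flavin in its N module, passes them along iron-sulfur clusters to coenzyme Q in its Q module, and pumps protons through a membrane arm with a proximal and a distal part. Core subunits carry the chemistry, accessory subunits surround and stabilize them, and assembly factors help to build the complex without staying in it. Tafazzin (gene symbol Taz here) is an acyltransferase that remodels cardiolipin, the lipid of the mitochondrial inner membrane in which complex I sits, and its loss causes Barth syndrome in humans. The comparison asks how messenger RNA of complex I genes differs between clones with and without Tafazzin.

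Reads counted in genes ran from 18970252 in 3G to 27431544 in 1B. Clone 3G nevertheless had the most genes with at least 1 count, 18536, where the other clones had from 15950 (3H) to 16845 (1B). Levels are CPM, that is counts scaled to library size, after scaling of library sizes by the trimmed mean of M values (TMM). Taz itself lay between 37.0 and 43.9 CPM in wild-type clones (median 38.4) and between 2.21 and 4.07 CPM in knockout clones (median 3.39), with a log2 fold change of -3.54 (SE 0.13, edgeR adjusted p = 5.68e-08). For 8 progenitor markers, the sum ran from 12528 to 21652 CPM over wild-type clones and from 11561 to 19355 CPM over knockout clones. Mpo weighed most in it, at a wild-type median of 10528 CPM, so the sum says little about the lower markers. Elane spanned 23.3 to 826 CPM over wild-type clones and 2.25 to 147 CPM over knockout clones. Its log2 fold change was -2.04 (SE 1.04, edgeR adjusted p = 0.263). Of the 8 markers, 5 had negative and 3 positive differences, and 0 had an edgeR adjusted p under 0.05. Clone 2D stood apart in 10 mature neutrophil markers, whose sum was 1536 CPM there, against a wild-type median of 68.7 and 15.9 to 145 CPM in knockout. Clone 3G stood apart in the sum of 4 fetal hepatocyte markers (Alb, Afp, Ttr and Apoa1). That sum was 141 CPM there, against at most 1.95 CPM in any other clone. Alb made up most of it, at 122 CPM. Afp did not set 3G apart, at 1.40 CPM or less in every clone. The lymphoid marker sum was 32.8 to 85.8 CPM in wild type and 6.07 to 28.5 CPM in knockout, with Cd3e at 3 counts or fewer in every clone. Ebf1 had the highest wild-type median of that list, 26.7 CPM, and was not called (edgeR adjusted p = 0.187). Of 5 lymphoid markers tested, 2 were called lower, against 3.94% of all tested genes. These were Cd79b (log2 fold change -3.60, edgeR adjusted p = 0.00737) and Igll1 (-3.55, edgeR adjusted p = 0.0266). In cultures, a change in the share of a cell type and a change in RNA per cell cannot be told apart.

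Complex I genes differed little between the genotypes. Of 45 members, 2 were lower in knockout (Ndufv3 and Ndufb3) and 0 were higher at an edgeR adjusted p under 0.05. Over all tested genes 3.94% were called lower and 3.99% higher, so the members' count is near the background. Before adjustment, 9 members (20%) had p under 0.05 against 23.7% of all tested genes. The 7 with a negative difference were Ndufv3, Ndufb3, Ndufc1, Ndufb8, Ndufa3, Ndufaf2 and Ndufaf1, and the 2 with a positive one were Ndufa6 and Ndufa7. DESeq2 called 3 members lower and 0 higher, adding Ndufc1 (adjusted p = 0.0283), where it called 7.03% of genes with an adjusted p lower and 6.94% higher. The 2 genotypes did not overlap in 1 member, Ndufb3, which was lower in every knockout clone, and in 0 members with knockout higher, against 2.84% and 2.54% of all tested genes.

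The 95% interval of the fold change lay within 1.5-fold either way for 45 of 45 members and within 1.3-fold for 40 of 45. The 5 whose interval reached beyond 1.3-fold were Ndufaf4, Ndufb2, Ndufb4, Ndufs5 and Ndufv3. The median SE of a member's log2 fold change was 0.05, against 0.09 over all tested genes.

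**Figure D1:**
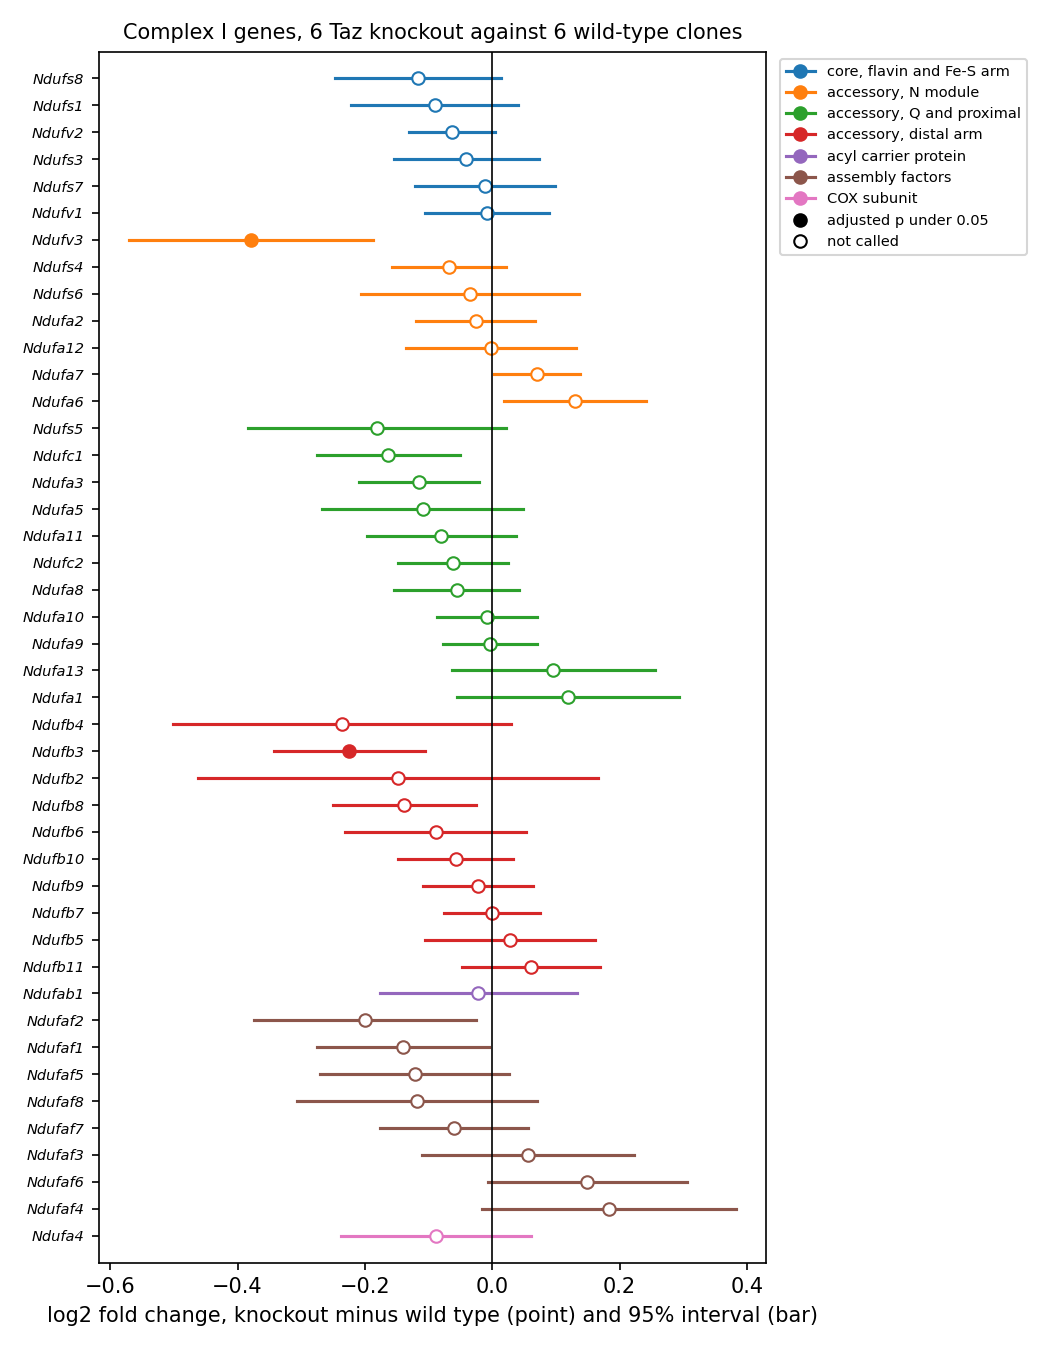
Log2 fold change (knockout minus wild type, points) with its 95% interval (bars) for 44 of the 45 complex I genes, coloured by role, with filled points for an edgeR adjusted p under 0.05. Ndufv3 at -0.38 and Ndufb3 at -0.22 are the filled points, and all other points are open.

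The sequences upstream of the called members are shown because both genes lie head to head with another gene. RefSeq gives them in build GRCm38.p6, and only the stretch beside the gene that no exon in the GENCODE M21 annotation covers is printed, in lower case because none of the 4 motifs described further down was found there or in the whole promoter window. The first is chr17:31519981-31520114 (plus strand, 134 bases, 61.9% G or C), between Ndufv3 and Wdr4, and the second is chr1:58586324-58586383 (plus strand, 60 bases, 56.7% G or C), between Ndufb3 and an exon of Fam126b.
Ndufv3: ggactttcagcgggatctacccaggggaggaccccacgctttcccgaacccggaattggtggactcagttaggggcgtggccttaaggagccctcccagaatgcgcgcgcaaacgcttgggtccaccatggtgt
Ndufb3: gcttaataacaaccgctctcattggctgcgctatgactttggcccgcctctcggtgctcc

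Ndufv3, on chromosome 17, encodes a small accessory subunit of the N module that exists in a short and a long splice form, which gene counts do not separate. Its level was 55.5 CPM in the lowest wild-type clone, 66.9 at the median and 76.4 in the highest. In knockout it was 44.3 CPM at the lowest, 49.4 at the median and 59.3 at the highest. The ranges overlapped only through wild-type clone 2E, which lay below knockout clones 4J (55.7 CPM) and 4L (59.3 CPM). The mean fell from 66.3 ± 7.62 CPM (SD, n = 6) to 51.0 ± 5.49 CPM (n = 6), a log2 fold change of -0.38 (SE 0.09, edgeR adjusted p = 0.0231, 95% interval -0.57 to -0.19). This is the largest difference among the 45 members in either direction. Wdr4, on the other side of the printed stretch, had a log2 fold change of 0.03 (SE 0.05, edgeR adjusted p = 0.818).

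Ndufb3, on chromosome 1, encodes an accessory subunit of the distal membrane arm. Its level was 47.2 CPM in the lowest wild-type clone, 50.5 at the median and 58.7 in the highest, which was 2D. In knockout it was 41.0 CPM at the lowest, 43.6 at the median and 46.6 at the highest, so every knockout clone lay under every wild-type clone. The mean fell from 51.1 ± 4.10 CPM (SD, n = 6) to 43.8 ± 1.91 CPM (n = 6), a log2 fold change of -0.22 (SE 0.05, edgeR adjusted p = 0.0276, 95% interval -0.34 to -0.11). Fam126b, its neighbour, had a log2 fold change of -0.10 (SE 0.06, edgeR adjusted p = 0.347).

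Both calls lay close to the threshold. Without the hepatocyte-marked clone 3G, Ndufv3 (edgeR adjusted p = 0.0556) and Ndufb3 (0.061) were no longer called, and 0 members were called without 3I either (0.0548 and 0.0595). Ndufv3 was also not called without 3H (0.0518), and Ndufb3 not without 1A (0.052), 2F (0.0544), 4K (0.0591) or 4L (0.056). The differences themselves moved little, to -0.36 for Ndufv3 and -0.22 for Ndufb3 without 3G. With counts summed by title number, which leaves 2 libraries a genotype, the edgeR adjusted p was 0.0644 for Ndufv3 and 0.101 for Ndufb3. That fit called 116 of 13800 genes lower, against 466 of 11819 in the main fit. Without 2D and 3G together, a choice made after seeing the data, Ndufb3 remained called and Ndufv3 was not (log2 fold change -0.34, edgeR adjusted p = 0.0805).

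**Figure D2:**
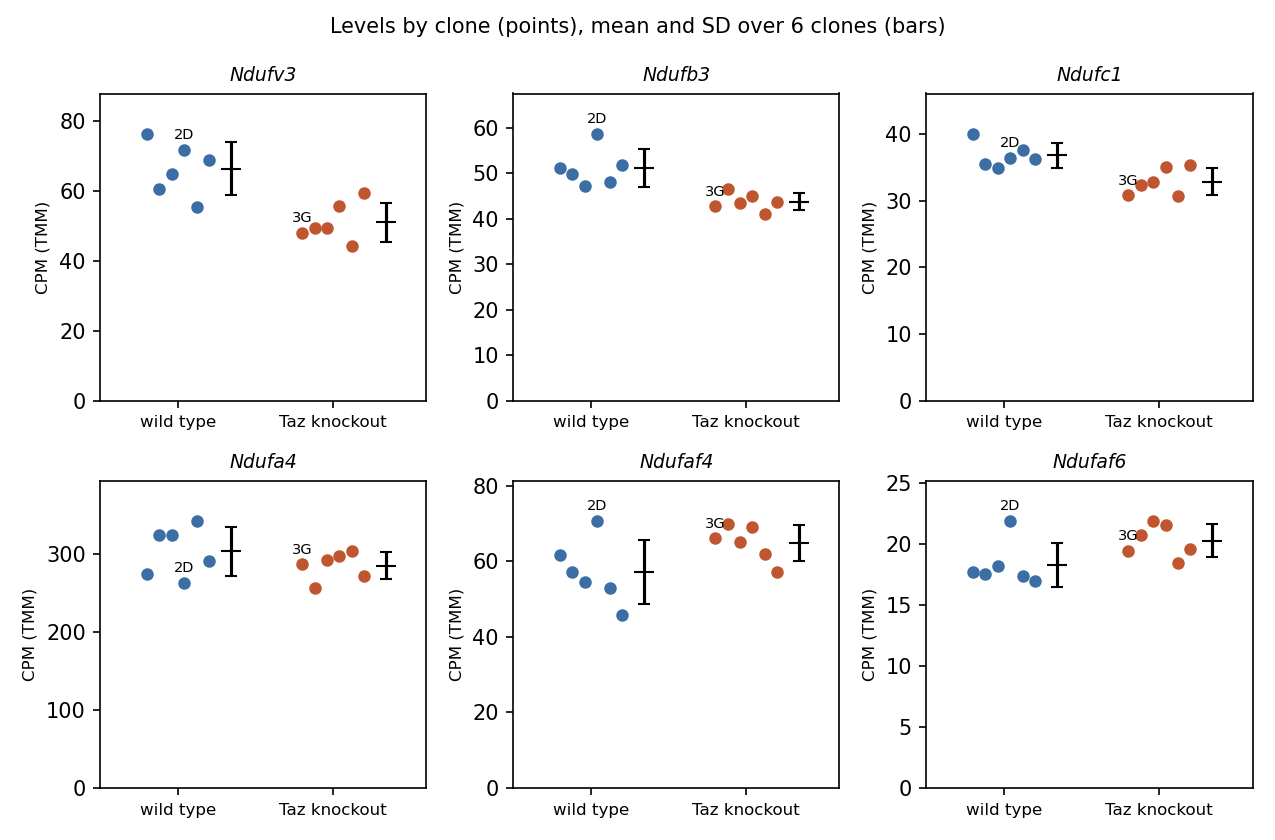
CPM after TMM scaling (vertical axis, from 0) in each clone for 6 complex I genes, with wild-type clones in blue, knockout clones in orange, the mean and SD over 6 clones in black, and clones 2D and 3G named. Ndufb3 is the panel in which the genotypes do not overlap, and in Ndufaf6 the wild-type clone 2D (21.9 CPM) lies above the other wild-type clones (17.0 to 18.2 CPM).

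The 7 core subunits that carry the flavin and the iron-sulfur clusters differed little. None was called in either direction by edgeR or DESeq2, and 0 had an unadjusted p under 0.05. All 7 differences were negative, as were 36 of all 45 members (80%). The median log2 fold change of the 7 was -0.04, with a range of -0.12 to -0.01. Ndufv1, which holds the flavin and binds NADH, had 138 to 167 CPM in wild type and 141 to 159 CPM in knockout. Ndufs7, an iron-sulfur subunit at the coenzyme Q site, had a log2 fold change of -0.01. Ndufs8, an iron-sulfur subunit of the Q module, had the largest of these differences (-0.12, edgeR adjusted p = 0.265). Ndufs1, the largest iron-sulfur subunit, reached 237 CPM in clone 2D against a wild-type median of 195.5 CPM.

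The other 6 accessory subunits of the N module were not called. Ndufs4 and Ndufs6, late-joining subunits in which mutations cause human complex I deficiency, had log2 fold changes of -0.07 and -0.03. Ndufa6, a subunit of the LYR protein family, had 73.3 to 84.7 CPM in wild type and 80.5 to 93.4 CPM in knockout (log2 fold change 0.13, edgeR adjusted p = 0.143). For Ndufa7 the wild-type median was 67.2 CPM and the knockout median 70.6 CPM (0.07, edgeR adjusted p = 0.192). In both genes 2D was the lowest of the 12 clones. Ndufa2 (-0.03) and Ndufa12 (-0.0023, 95% interval -0.14 to 0.13) showed the smallest differences of the module.

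Of 11 accessory subunits of the quinone-binding and proximal membrane part, edgeR called 0 and DESeq2 called Ndufc1, and 2 were under 0.05 before adjustment. In all, 9 had negative differences and the median log2 fold change was -0.06. Ndufc1, a small membrane subunit, had 34.9 to 40.1 CPM in wild type (median 36.3) and 30.7 to 35.4 CPM in knockout (median 32.6), with a log2 fold change of -0.16 (SE 0.05, edgeR adjusted p = 0.0749). Ndufs5 had 7.48 to 9.00 CPM in wild type (median 8.16) and 6.36 to 8.66 CPM in knockout (median 7.05), a log2 fold change of -0.18 (SE 0.09, edgeR adjusted p = 0.264). The X-linked Ndufa1, without which the complex is not assembled, had 39.5 to 55.7 CPM in wild type (median 50.7) and 50.8 to 56.8 CPM in knockout (median 52.6), a log2 fold change of 0.12 (SE 0.08, edgeR adjusted p = 0.406). Its mean was 48.8 ± 6.52 CPM (SD, n = 6) in wild type and 53.0 ± 2.06 CPM (n = 6) in knockout. Ndufa9 and Ndufa10, larger subunits beside the Q site and the membrane arm, differed by -0.0034 and -0.0082 on the log2 scale, with 95% intervals of -0.08 to 0.07 and -0.09 to 0.07.

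Of 10 accessory subunits of the distal membrane arm, 1 was called (Ndufb3), 8 had negative differences and the median log2 fold change was -0.07. Ndufb4 had 7.80 to 12.2 CPM in wild type (median 9.58) and 7.18 to 10.4 CPM in knockout (median 8.04). Its log2 fold change of -0.24 (SE 0.12, edgeR adjusted p = 0.266) was larger than that of Ndufb3 and had a wider interval (-0.50 to 0.03). The X-linked Ndufb11 had 70.7 to 87.5 CPM in wild type (median 81.8) and 81.4 to 89.7 CPM in knockout (median 83.7), a log2 fold change of 0.06 (SE 0.05, edgeR adjusted p = 0.494). Its lowest clone was again 2D. Ndufb2 varied most of all members within a genotype (SD of log2 CPM 0.27), from 19.7 to 33.1 CPM in wild type and from 17.5 to 29.8 CPM in knockout.

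Ndufab1 is the mitochondrial acyl carrier protein, which is a subunit of complex I and also serves fatty acid synthesis and iron-sulfur cluster assembly. It had 18.4 to 22.6 CPM in wild type (median 19.7) and 16.9 to 21.8 CPM in knockout (median 19.7), with a log2 fold change of -0.02 (SE 0.07, edgeR adjusted p = 0.89). Ndufa4 is named as a complex I subunit and its protein was later assigned to cytochrome c oxidase. It had 263 to 343 CPM in wild type (median 308) and 257 to 304 CPM in knockout (median 290), with a log2 fold change of -0.09 (SE 0.07, edgeR adjusted p = 0.473). The means were 303 ± 31.8 CPM (SD, n = 6) and 285 ± 17.7 CPM (n = 6), and the ranges overlapped.

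Of 8 assembly factors, 0 were called by edgeR or DESeq2, 2 had an unadjusted p under 0.05, 5 had negative and 3 positive differences. Ndufaf4, which works with Ndufaf3 on the Q module, had 45.9 to 70.7 CPM in wild type (median 55.7) and 57.1 to 69.7 CPM in knockout (median 65.6), with a log2 fold change of 0.18 (SE 0.09, edgeR adjusted p = 0.25). The highest of its 12 values was the wild-type clone 2D. Ndufaf2, a chaperone that resembles Ndufa12 and acts late, had 19.2 to 25.2 CPM in wild type (median 22.05) and 16.5 to 21.02 CPM in knockout (median 19.4), a log2 fold change of -0.20 (SE 0.08, edgeR adjusted p = 0.152). Ndufaf6 had 17.0 to 21.9 CPM in wild type and 18.5 to 21.9 CPM in knockout (0.15, edgeR adjusted p = 0.233). Without clone 2D, Ndufaf6 was called higher in knockout (edgeR adjusted p = 0.0376). Ndufaf1, part of the membrane arm assembly complex, differed by -0.14 (edgeR adjusted p = 0.192), and Ndufaf5, which hydroxylates Ndufs7, and its partner Ndufaf8 by -0.12 each (edgeR adjusted p = 0.306 and 0.446). Ndufaf7, a methyltransferase, differed by -0.06, and Ndufaf3 by 0.06.

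Small negative differences were frequent among the members. In all, 36 of 45 (80%) were below 0, against 51.7% of all tested genes and 53.1% of the 7801 tested genes whose mean log2 CPM was 4 or more. The median log2 fold change of the members was -0.06, against -0.01 over all tested genes. The count of negative members was 28 without clone 2D, 29 without 4K and 31 without 3G, between 34 and 37 without any other single clone, and 28 without both 2D and 3G, and the median was -0.03 without 2D, -0.04 without 3G and -0.03 without both. Summed over the 45 members, the level was 3593 to 3763 CPM in wild type (mean 3658 ± 60.4, SD, n = 6) and 3429 to 3705 CPM in knockout (mean 3557 ± 103, n = 6). The ranges of the sums overlapped.

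Single clones stood out across many members. Clone 2D, the clone with high neutrophil markers, was the highest of the 12 clones for 21 of 45 members, a larger share than the 21.1% of all tested genes. It was the lowest of the 12 for Ndufa6, Ndufa7 and Ndufb11. The 21 included 6 of the 8 assembly factors (Ndufaf1, Ndufaf2, Ndufaf4, Ndufaf5, Ndufaf6 and Ndufaf8). Among the wild-type clones alone, 2D was highest for 23 members and lowest for 7, among them Ndufa3, Ndufa4, Ndufb5 and Ndufb11. Under 3 other scalings of the libraries, 2D was highest for 20 or 21 members. Clone 3G was the lowest of 12 for 12 of 45 members (8 to 12 over the scalings), a larger share than the 9.91% of all tested genes. Clone 4K was lowest for 10 of 45 (10 or 11), a larger share than 11.2%. Clone 4J was the highest for 8 of 45 (5 to 8), a larger share than 5.31%. The 3 of 45 members lowest in 2D are a smaller share than the 18.6% of all tested genes. The part of the neutrophil and hepatocyte marker genes' source cells in these differences was not tested.

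**Figure D3:**
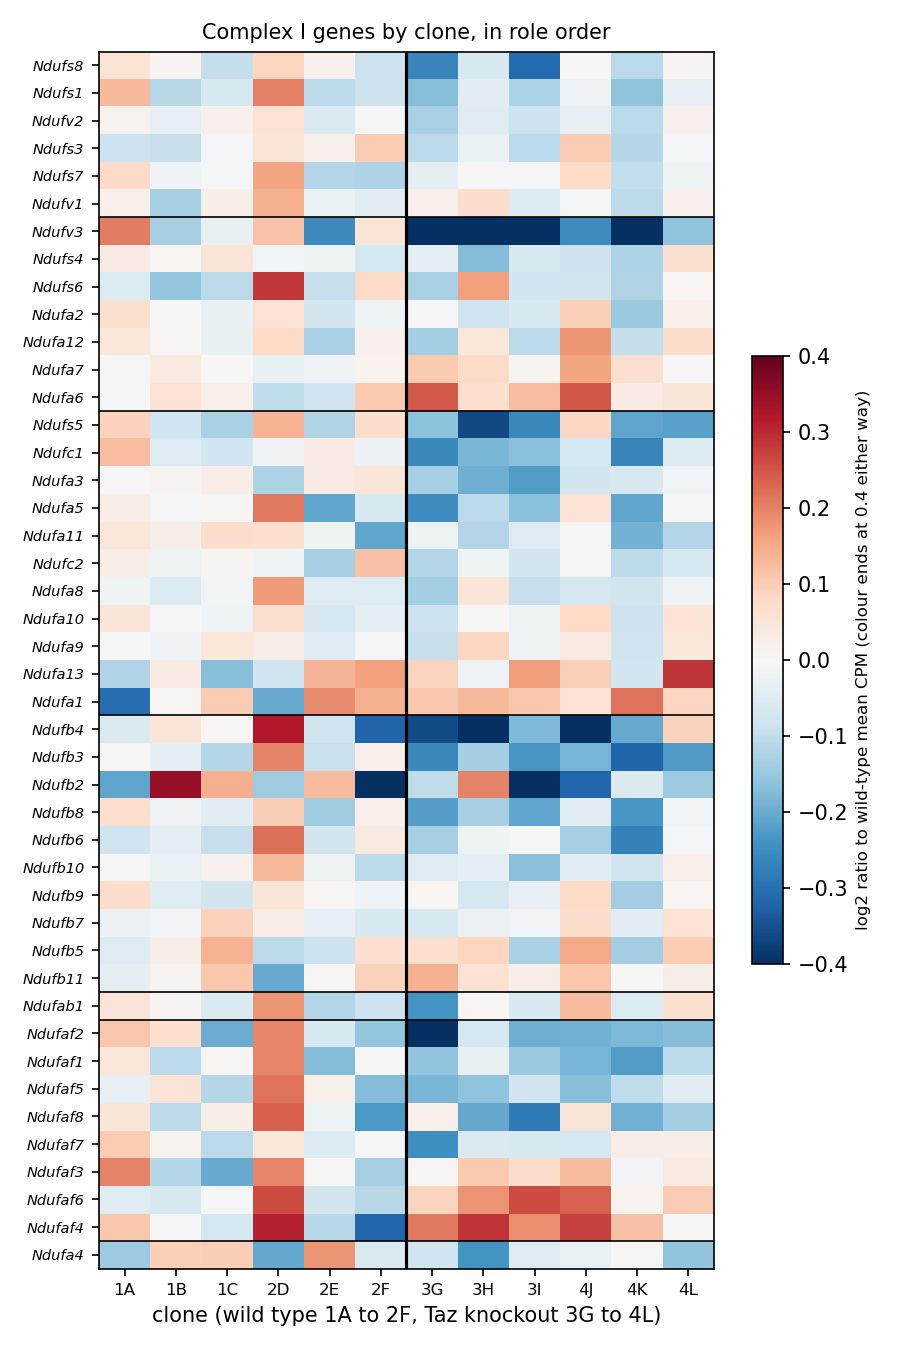
Log2 ratio of each clone's CPM to the wild-type mean (colour, ending at 0.4 either way) for 44 of the 45 complex I genes in role order (rows) in the 12 clones (columns, wild type left of the line). Clone 2D is red for most assembly factors and blue for Ndufa4, Ndufa6 and Ndufb11, and Ndufv3 is blue in all 6 knockout clones.

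For the spread between clones, the median SD of log2 CPM within a genotype was 0.09 over the members, against 0.15 over all tested genes and 0.11 for those whose mean log2 CPM was 4 or more, a group not matched to the members' levels. The most variable were Ndufb2, Ndufb4, Ndufaf4, Ndufv3 and Ndufa1. After centring by genotype, the median correlation over 990 pairs of members was 0.26 across 12 clones, which share libraries and their scaling. Between the 2 title numbers of a genotype, 0 members and 0 genes were called by edgeR (0% in wild type, 0% in knockout), with 0 and 2 members at an unadjusted p under 0.05. DESeq2 called 0 members and 5 and 4 genes there.

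The differences were also taken between each knockout and each wild-type title number, in 4 pairs that share libraries. In no pair was a member called by edgeR, and few genes were called at all. Of 11819 tested genes, the calls were 185 (3 minus 1), 85 (3 minus 2), 60 (4 minus 1) and 31 (4 minus 2). With the same sign in all 4 pairs, 0 members were called, against 0.203% of all tested genes. Ndufv3 and Ndufb3 had negative differences in all 4, among 22 members that did, and 8 members had positive differences in all 4. The share of all tested genes that keep the same sign in all 4 pairs was not counted, so these numbers have no background. For Ndufb3 the 4 differences were -0.16, -0.25, -0.19 and -0.29 on the log2 scale.

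Per kilobase of its principal transcript, the level of complex I genes spanned a wide range. Ndufa4 was highest at 497 CPM per kb in wild type, followed by Ndufc2 at 172, and Ndufb9 at 155 and Ndufb7 at 153 were also among the highest. The lowest were Ndufab1 at 5.75, Ndufb2 at 5.95, Ndufb4 at 10.0, Ndufs5 at 12.0 and Ndufaf3 at 12.8 CPM per kb, and the 8 assembly factors all lay between 12.8 and 32.5, below the members' median of 83.1. Of 44 neighbouring pairs in this order, 31 were closer than the larger of their SDs over wild-type clones. Several low values belong to genes with a near-identical copy, where reads may be split or left out. Another gene's transcript matches 40.2% of Ndufb4 (the pseudogene Ndufb4c), 46.9% of Ndufs5 (BC002163), 36.2% of Ndufa12 (Gm15920) and 75.7% of Ndufs3 (Gm12251). How reads of these genes were placed was not tested, and their levels are uncertain. The annotated transcripts of Ndufab1 (3479 bases) and Ndufb2 (4371) are long beside the members' median of 983 bases, which itself is short beside 3003 bases over 10821 tested protein-coding genes. Exons of 18 members overlap another gene, and counting ignored strand. The antisense transcript B230220B15Rik (65.7% of the exon length of Ndufaf2) is not among the counted genes, so its reads cannot be told apart from those of Ndufaf2. Smim27 (39% of the exon length of Ndufb6) is a counted gene. How reads in the stretch it shares with Ndufb6 were assigned was not tested.

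Respiratory chain genes outside the members were counted in lists written with earlier results of these data known. Among 15 other genes needed to build complex I, 0 were higher and 1 lower, with a median log2 fold change of -0.06. The lower gene was Aifm1, a flavoprotein that aids import of respiratory chain subunits (131 ± 5.36 CPM, SD, n = 6, in wild type and 112 ± 6.48 CPM, n = 6, in knockout, log2 fold change -0.23, edgeR adjusted p = 0.00896, and 0.0672 with counts summed by title number). Acad9, Ecsit and Tmem126b, partners of Ndufaf1, were not called, at -0.17, -0.06 and -0.08.

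In complex II, 1 of 8 genes was lower, the membrane anchor Sdhd (-0.20, edgeR adjusted p = 0.0201). In complex III, 3 of 9 were lower (Uqcrh at -0.13, Uqcr10 at -0.13 and Uqcrfs1 at -0.16) and 1 higher (Uqcrq at 0.32, edgeR adjusted p = 0.0396), with a median of -0.12. Of these, Uqcrh was called without each clone in turn, while Uqcrfs1 and Uqcrq lost the call in 10 of 12 such fits and Uqcr10 in 8. Fits summed by title number called Uqcrq and none of the 3 lower genes (Uqcrh at an edgeR adjusted p of 0.125). In complex IV, 1 of 13 was lower (Cox6b1 at -0.17, edgeR adjusted p = 0.0137) and 1 higher, Cox6a2, an isoform known from heart and skeletal muscle. Cox6a2 had 0.775 to 3.68 CPM in wild type and 22.1 to 35.2 CPM in knockout (log2 fold change 3.78, SE 0.31, edgeR adjusted p = 0.000163). In complex V, 3 of 14 were lower (Atp5k at -0.27, Atp5g3 at -0.18 and Atp5j2 at -0.16) and 0 higher, with Atp5j2 lost in 3 of 12 fits without a clone. The medians of complexes I, II, IV and V lay between -0.04 and -0.07.

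**Figure D4:**
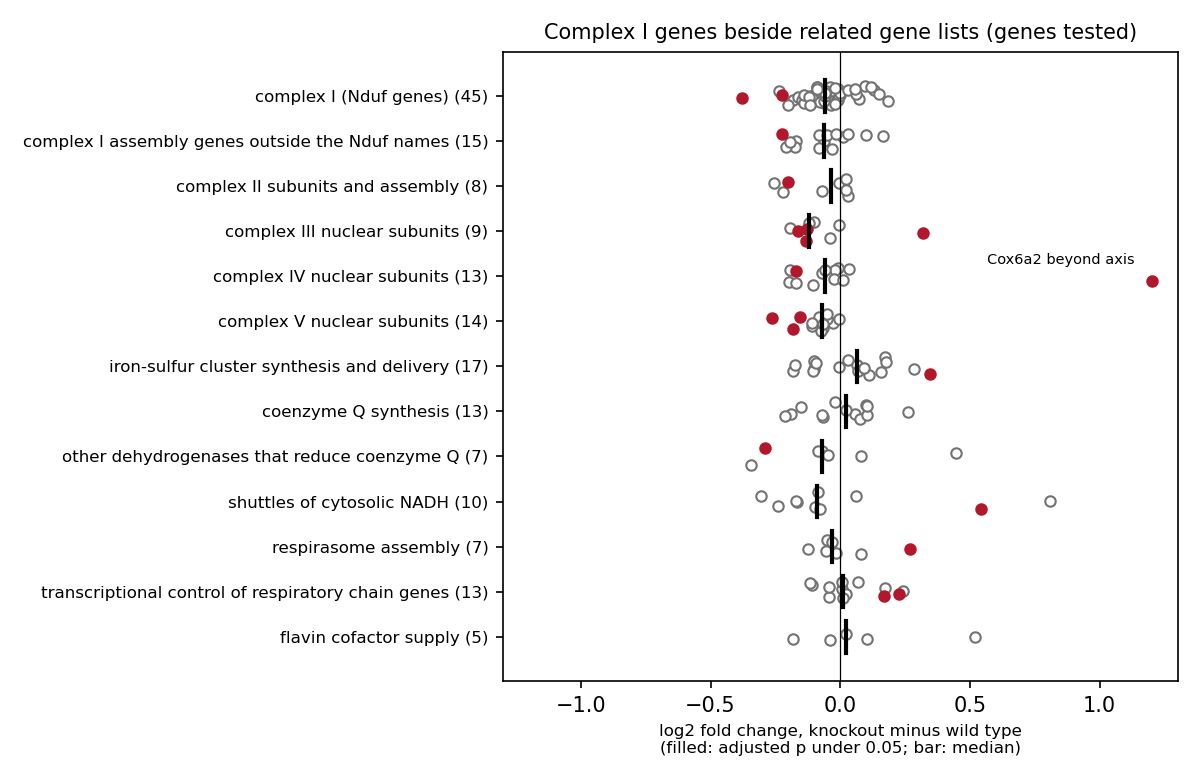
Log2 fold change of each tested gene (points, filled for an edgeR adjusted p under 0.05) and the list median (black bar) for the 45 complex I genes and 12 related lists, with the number tested in brackets. Complex I has 2 filled points of 45, and Cox6a2 at 3.78 lies beyond the axis.

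Suppliers and partners of the complex were also counted. Among 17 genes of iron-sulfur cluster synthesis and delivery, 1 was higher (Hspa9, the mitochondrial Hsp70, at 0.35, edgeR adjusted p = 0.0147) and 0 lower, and the list median was 0.06. None of 13 coenzyme Q synthesis genes or 5 genes of flavin supply was called by edgeR or DESeq2, with 1 of each list at an unadjusted p under 0.05. Of 7 other dehydrogenases that pass electrons to coenzyme Q, 1 was lower, Etfdh of fatty acid oxidation (-0.29, edgeR adjusted p = 0.00596). Of 10 genes for shuttles of cytosolic NADH, 1 was higher, the aspartate transaminase Got1 (0.54, edgeR adjusted p = 0.0312), a call lost in 8 of 12 fits without a clone. Of 7 genes tied to the joining of complexes I, III and IV, 1 was higher, Cox7a2l (0.27, edgeR adjusted p = 0.0234), a call lost in 4 of those fits. Of 13 genes that control transcription of respiratory chain genes, 2 were higher, Gabpb1 (0.23, edgeR adjusted p = 0.0124) and Pprc1 (0.17, edgeR adjusted p = 0.0474), the latter lost in 10 of the fits.

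In these 12 lists together, 17 genes were called, and with counts summed by title number 3 of the 17 were called (Uqcrq, Cox6a2 and Etfdh) and 14 were not. Calls were fewer over all genes too. The summed fit called 158 of 13800 genes higher and 116 lower, where the main fit called 472 of 11819 higher and 466 lower. The 14 include Sdhd, Cox6b1, the 3 complex V genes, Hspa9, Got1, Cox7a2l, Gabpb1 and Pprc1, with edgeR adjusted p from 0.0603 for Cox7a2l to 0.176 for Uqcr10.

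Promoters were searched for motifs of factors known to act on respiratory chain genes, on both strands, over RefSeq windows from 250 bases before to 50 after the start. Entries were found for 40 of 45 members. The YY1 core AAGATGGC was found in 8 members (20%), against 3.19% of all 27025 genes with an entry and 5.77% of 8895 tested genes. All 8 copies lay on the gene's own strand, from 11 to 39 bases after the start, and in 7 of 8 the letters hold the annotated start codon, so that this motif cannot be told apart from the sequence around a start of translation. The sites of 3 genes with an unadjusted p under 0.05 and of Ndufaf8, where the start codon is elsewhere, are shown with the motif in capitals. They come from the gene's strand in GRCm38.p6, at chr3:51408915-51408944 (Ndufc1, minus), chr19:44555393-44555422 (Ndufb8, minus), chr7:3617384-3617413 (Ndufa3, plus) and chr11:120098933-120098962 (Ndufaf8, plus), all within annotated exons of these genes.
Ndufc1: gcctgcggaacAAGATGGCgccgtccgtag
Ndufb8: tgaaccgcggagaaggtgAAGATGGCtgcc
Ndufa3: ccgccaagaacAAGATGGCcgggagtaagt
Ndufaf8: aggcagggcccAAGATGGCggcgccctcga

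The log2 fold changes of the 8 members with the YY1 core ran from -0.16 to -0.0034. All 8 were negative, as were 36 of all 45 members (80%). Of these, edgeR called 0, with 3 at an unadjusted p under 0.05, and DESeq2 called Ndufc1. The NRF1 core GCATGCGC was found in 5 members (12.5%), against 3.05% of all and 6.32% of tested genes. These were Ndufa6, Ndufa8, Ndufa11, Ndufaf4 and Ndufaf5, with log2 fold changes from -0.12 to 0.18. The sites of the 2 with positive differences are shown, again with the motif in capitals. Both lie upstream of the annotated exons, at chr15:82354356-82354385 (Ndufa6, minus strand) and chr4:24897959-24897988 (Ndufaf4, plus strand). In Ndufaf4 the core occurs on both strands, in overlapping copies. The capitals there mark the copy on the other strand, and the copy on the gene's own strand runs on into the next letters, gc.
Ndufa6: tccgcggtagaGCATGCGCattgcagagcc
Ndufaf4: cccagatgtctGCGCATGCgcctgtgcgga

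The ETS core CCGGAAG was found in 6 members (15%), against 9.93% of all and 21.7% of tested genes. The letters TGATGNAA, the core bound by ATF4 with a partner, were found in 0 members, against 4.51% of all and 2.77% of tested genes. A match is a run of letters and does not show that a factor binds.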

How the data were processed

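RNA sequencing of 12 clones, 6 a genotype, gave raw counts per Ensembl gene, deposited as 1 table a clone. Per the submitters' processing notes, the authors used STAR, HTSeq and edgeR with build mm9. Versions are not given in the sources used here. The deposited file names state that strand was ignored. The last 5 lines of each table name no gene and were left out. Alignments to more than 1 place made up 42.8% to 44.9% of all records.

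Of 37583 identifiers, 32860 matched GENCODE M21, a later build used for names, chromosomes, transcripts and overlaps. Copies were searched with blastn (at least 97% identity over 75 bases). Promoters came from RefSeq, GRCm38.p6.

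The main test was the quasi-likelihood test of edgeR 4.0.16 in R 4.3.3 (TMM, filterByExpr by genotype, Benjamini-Hochberg adjustment over 11819 genes, threshold 0.05). Intervals are 95%. DESeq2 1.42.0, limma 3.58.1 (voom), other scalings and filters, summed counts and fits without each clone were alternatives. Counts limit precision through counting error, PCR copies and 6 clones a genotype.

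The members, roles, lists and motifs were chosen with earlier results of these data known. Named members were those called, the 5 uncalled with the largest difference (mean log2 CPM of at least 2), Ndufa4, Ndufab1, Ndufa1 and Ndufb11. Related lists name up to 3 called genes. Ndufa6, Ndufa7, Ndufaf6, the remaining assembly factors and others given with values in their role group were added after their values were seen. The values of 1 member enter the counts and medians and are not reported here.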

Additional observations from a re-analysis of the deposited data

Results flagged for a closer look

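Among 90 groups of 6 clones (45 members in 2 genotypes), 5 held a clone far from the other 5, with a gap over 0.625 of the group's range. Chance gives such a gap in about 1 of 20 groups. Of the 5, 3 were in clone 2D, the wild-type clone with high neutrophil markers, whose part was not tested. Ndufa8, a proximal subunit, reached 96.0 CPM in 2D where the remaining wild-type clones had 82.2 to 84.7 CPM. The assembly factor Ndufaf6 reached 21.9 CPM in 2D against 17.0 to 18.2 CPM. Ndufa3 was low in 2D, at 71.8 CPM against 78.0 to 80.7 CPM. Ndufa11 was low in wild-type clone 2F, at 39.2 CPM against 44.7 to 47.5 CPM. Ndufaf7 was low in knockout clone 3G, the clone with hepatocyte markers, at 31.5 CPM against 35.6 to 38.0 CPM.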

How the results depend on the processing

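The count of members higher in knockout was 0, and 1 with limma voom and the title number as a correlated block (Ndufa6). The count of members lower was 2, and 0 with counts summed by title number, 5 with that block (estimated correlation -0.17) and 1 without 2D and 3G together. Over all genes, the main fit called 466 of 11819 lower and the summed fit 116 of 13800. The fit with the block called 1125 of 11819 genes lower and 1171 higher, and the fit without 2D and 3G called 325 of 11826 lower. Over fits without 1 clone each, the counts of members ran from 0 to 1 higher (1 without 2D) and from 0 to 2 lower (0 without 3G or 3I, 1 without 1A, 2F, 3H, 4K or 4L). Of 11900 to 11934 genes tested, those fits called from 294 higher (without 3I) to 558 (without 2D). Called lower were from 272 genes (without 3G) to 535 (without 2E). The median log2 fold change of the members stayed negative under each alternative, from -0.07 without 1B to -0.03 without 2D and 3G. Ndufab1 changed sign, from -0.0555 without 4J to 0.0186 without 2D and 0.0191 without 3G, and 0.0563 without both 2D and 3G, and was not called in any fit. The causes were not tested. Ndufc1 was called by DESeq2 (adjusted p = 0.0283) and with the block (0.0142), and Ndufaf2 with the block (0.041). No paired analysis was possible because wild-type and knockout clones share no title number. Counts of called genes in the related lists moved in 59 of their fits and were the same in 277. Reads shared with copies and overlapping genes limit Ndufs3, Ndufs5, Ndufb4, Ndufa12 and Ndufaf2.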
